A study of Mus musculus with 10 samples.

Results

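Potassium channel genes were taken as all protein-coding genes in the counts whose symbol starts with Kcn, and 41 of the 16112 counted genes met this rule. The annotation (GENCODE M21 on GRCm38) holds 94 such genes, and the other 53 are not analysed here. The counts come from whole extensor digitorum longus (EDL), psoas, and soleus muscles of mice labelled wild type in the strain B6C3Fe a/a-Ttnmdm/J, a strain kept for the mdm allele of titin, which these mice did not carry. EDL and psoas are fast muscles of the leg and the hip, and soleus is a slow muscle of the calf. There were 3 EDL libraries (mice aged 42, 54, and 44 days), 3 psoas libraries (42, 54, and 44 days), and 4 soleus libraries (42, 44, 32, and 44 days). The labels give 5 libraries from males and 4 from females, and leave the sex of 1 soleus library out. The mice had served another study, no treatment is given for any of them, and 3 of the 7 animal codes in the labels stand for more than 1 library. The study's methods state fewer mice than there are codes and more than 1 sequencing run, so which libraries share an animal is not certain, and the run of each library is not given in the sources used here. The comparisons asked how the muscles differ from each other, since all mice were wild type.

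Potassium channels let potassium ions pass through the cell membrane and so bring it back to rest after an action potential. In muscle fibers, inward rectifiers hold the resting potential together with the chloride conductance, voltage-gated channels end the action potential, channels gated by ATP couple excitability to metabolism, and calcium-activated channels respond to the calcium that triggers contraction. Whole muscle also holds vessels, nerve, and connective tissue, whose cells have channels of their own, and in such bulk samples fewer cells of a type and less RNA per cell cannot be told apart.

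By role, the 41 genes comprised 14 pore subunits of voltage-gated channels, 4 subunits that modify such pores without conducting by themselves, 5 accessory subunits, 6 inward rectifiers, 5 tandem-pore (Kcnk) channels, 3 large-conductance channels of the Kcnma, Kcnu, and Kcnt families, and 4 calcium-activated channels of small or intermediate conductance (Kcnn). Of the annotated genes, 4 of 4 Kcnn, 6 of 15 Kcnj, 5 of 14 Kcnk, and 1 of 4 Kcnmb genes were measured, and the Kcnd and Kcnip families are not analysed here. The same holds for Kcna3, Kcne1, Kcne3, Kcnj10, Kcnk3, and Kcnmb1, which are known from muscle, vessels, nerve, or leukocytes. The authors' filter asked for 10 reads in 3 libraries or more, and 16 of the 41 genes had 10 reads in every library. Kcns1 passed through the libraries of EDL alone, and Kcna6, Kcnb2, and Kcnj15 passed only through EDL 1, EDL 2, and psoas 1.

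To give the sequence context of genes that differed between muscles, the 250 bases before the RefSeq transcription start are shown for 4 of them (GRCm38.p6). These 4 were picked after their values were seen, from the called genes that have a window without an annotated exon. Kcnc1 (chr7:46396218-46396467, plus strand) and Kcns1 (chr2:164171114-164171363, minus strand) are shown upstream of the gene. For Kcnj12 (chr11:61065554-61065803, plus strand) and Kcnh2 (chr5:24329592-24329841, minus strand), the window lies in an intron of the gene, before the start of a shorter transcript. Capitals mark the E-box CANNTG, the motif bound by basic helix-loop-helix factors such as MyoD, which reads the same on both strands.
Kcnc1: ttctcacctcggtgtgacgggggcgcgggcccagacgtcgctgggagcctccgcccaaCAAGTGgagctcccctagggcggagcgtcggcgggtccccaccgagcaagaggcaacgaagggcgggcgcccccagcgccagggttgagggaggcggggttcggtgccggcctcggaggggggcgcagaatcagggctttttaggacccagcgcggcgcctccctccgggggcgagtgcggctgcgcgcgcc
Kcns1: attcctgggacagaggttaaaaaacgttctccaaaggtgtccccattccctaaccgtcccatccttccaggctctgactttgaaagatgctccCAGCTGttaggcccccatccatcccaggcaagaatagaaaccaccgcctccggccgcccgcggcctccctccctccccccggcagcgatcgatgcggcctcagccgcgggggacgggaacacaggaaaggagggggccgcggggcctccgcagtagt
Kcnj12: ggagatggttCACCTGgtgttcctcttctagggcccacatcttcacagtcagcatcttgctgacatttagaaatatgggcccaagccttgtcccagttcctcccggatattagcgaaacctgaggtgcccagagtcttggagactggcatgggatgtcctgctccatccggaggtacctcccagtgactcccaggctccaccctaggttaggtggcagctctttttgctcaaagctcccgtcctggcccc
Kcnh2: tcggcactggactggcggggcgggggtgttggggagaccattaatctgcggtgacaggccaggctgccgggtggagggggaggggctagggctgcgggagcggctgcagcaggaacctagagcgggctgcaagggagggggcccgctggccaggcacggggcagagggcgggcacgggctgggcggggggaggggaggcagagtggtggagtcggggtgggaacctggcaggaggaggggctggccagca
One E-box each stood in the windows of Kcnc1, Kcns1, and Kcnj12, and none stood in that of Kcnh2. RefSeq promoters were found for 32 of the 41 genes, with 42 windows in all. An E-box was present in 76.2% of these windows and in 66.2% of the windows of all 32851 tabulated promoters. The consensus of MEF2, another muscle factor, was in none of the 42 windows and in 2.92% of all.

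Levels are given as FPKM, the counts of a gene scaled to the normalized library size (CPM) and divided by its summed exon length in kilobases, which allows genes to be compared with each other. The levels of the 41 genes were very uneven. Only 3 genes had a mean of the muscles above 10 FPKM and 13 had one above 1 FPKM, and 6 genes stayed under 0.1 FPKM in every muscle (Kcna6, Kcnb2, Kcnh7, Kcnj15, Kcnn4, and Kcnq1, with muscle means from 0.00785 to 0.0821 FPKM and at most 68 reads). The 5 genes with the highest mean of the muscles were Kcna7, Kcnj2, Kcng4, Kcnj12, and Kcnj11. They made up between 72.3% (EDL 1) and 85.2% (psoas 2) of the summed FPKM of the 41 genes in a library. This sum lay between 74.1 FPKM in EDL 1 and 144 FPKM in psoas 1, and reads of potassium channel genes were between 0.0284% and 0.0611% of the counts of a library.

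**Figure D1:**
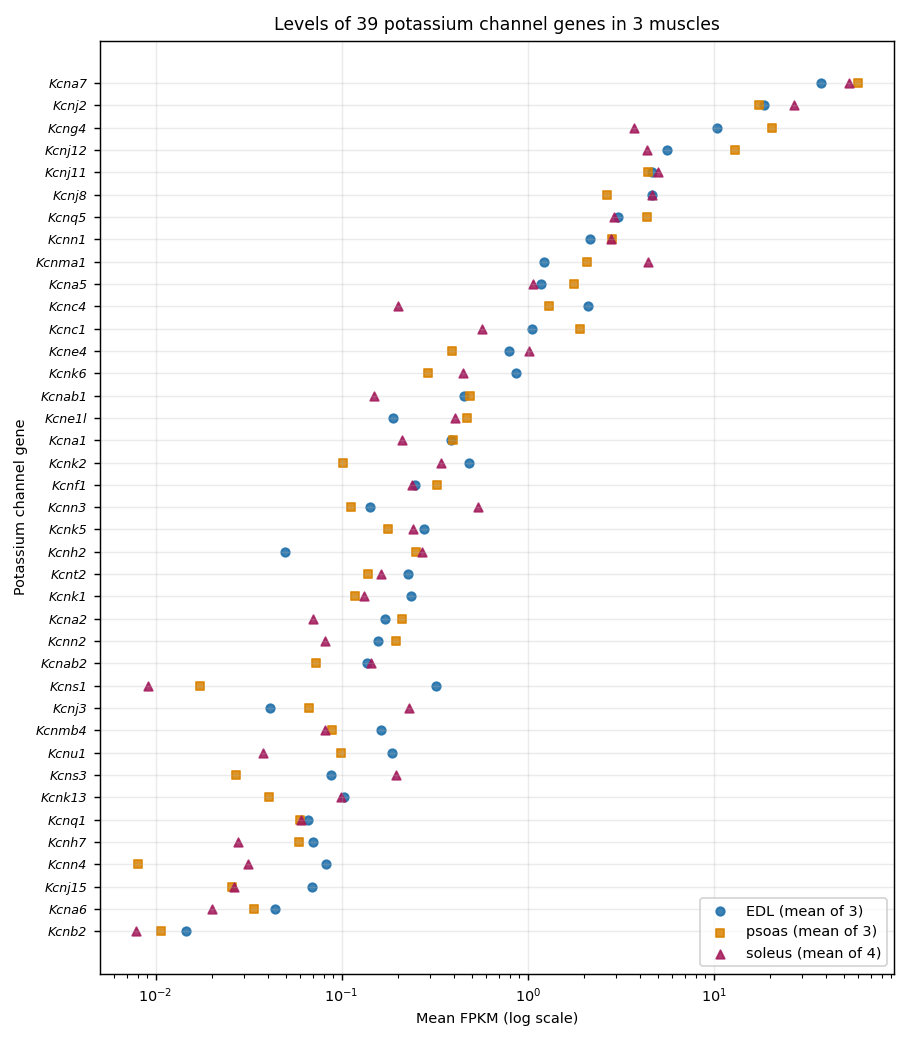
Mean FPKM (log scale) of 39 of the 41 potassium channel genes in EDL (3 libraries), psoas (3), and soleus (4), ordered by the mean of the muscles. Kcna7 is at the top in every muscle, with means of 37.9, 59.9, and 53.1 FPKM, and the means of Kcns1 lie farthest apart, with 0.321 FPKM in EDL against 0.0174 in psoas and 0.00906 in soleus.

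Kcna7, a voltage-gated pore subunit of the Shaker family, was the most abundant potassium channel gene in each of the 10 libraries and accounted for 31.0% to 47.5% of the summed FPKM. It had 22.9, 36.8, and 53.9 FPKM in EDL 1, 2, and 3, 53.5, 65.0, and 61.3 FPKM in psoas, and 53.5, 51.1, 55.7, and 52.3 FPKM in soleus. The soleus libraries lay within 1.09-fold of each other, whereas the EDL libraries spread over 2.35-fold, and the 3 muscles overlapped. No comparison of Kcna7 passed the test (adjusted p = 0.11 in psoas vs EDL, 0.17 in soleus vs EDL, and 0.68 in soleus vs psoas), but psoas vs EDL passed without EDL 3 (adjusted p = 0.0094).

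Kcnj2 encodes Kir2.1, an inward rectifier that sets the resting potential and whose mutation causes a periodic paralysis in humans. By the mean of the muscles, Kcnj2 came next after Kcna7, though not by the mean in psoas, where Kcng4 was higher. Kcnj2 had 18.5 ± 5.62 FPKM (SD) in the 3 EDL libraries, 17.4 ± 3.69 in the 3 psoas libraries, and 27.0 ± 6.11 in the 4 soleus libraries, and the muscles overlapped. Kcng4, a modifying subunit that conducts only together with other pores, had 8.76, 9.73, and 12.9 FPKM in EDL, 35.3, 20.9, and 5.36 FPKM in psoas, and 9.74, 2.02, 1.61, and 1.47 FPKM in soleus. Psoas thus spread over 6.58-fold and soleus over 6.63-fold, so that the order of Kcng4, Kcnj2, and Kcnj12 in psoas was not clear of the spread between libraries. In EDL, the Kcna7 and Kcnj2 ranges overlapped, those of Kcnj2 and Kcng4 did not, and those of Kcnj12, Kcnj11, Kcnj8, Kcnq5, and Kcnn1 each overlapped with the next. In soleus, Kcna7 and Kcnj2 stood clear of each other and of the rest, and Kcnj11, Kcnj8, Kcnma1, Kcnj12, Kcng4, and Kcnq5 overlapped in turn.

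All 16112 genes and 10 libraries were fitted together, muscles were compared by the quasi-likelihood test of edgeR, and p-values were adjusted over all genes by the Benjamini-Hochberg method. To be called, a gene needed more than a 2-fold difference and an adjusted p below 0.01. The p-values measure the spread between these libraries, some of which come from the same animal. In psoas vs EDL, 1 of the 41 genes was called, and it was higher in psoas. This is 2.44% of the genes, against a background of 2.11% of all genes called. In soleus vs EDL, 3 genes were higher and 3 lower in soleus (14.6%, background 5.77%). Kcns1, one of the lower genes, reached 10 reads in EDL alone, and without it and all genes that reached 10 reads in 1 muscle alone, 12.5% of the 40 remaining potassium channel genes were called, against 5.60% of all genes. In soleus vs psoas, 3 genes were higher and 5 lower in soleus (19.5%, background 5.69%). Together 11 genes were called, 4 of them in 2 comparisons, and the other 30 were called in none.

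The median log2 fold change of the 41 genes was −0.25 in psoas vs EDL, −0.37 in soleus vs EDL, and −0.17 in soleus vs psoas, beside 0.01, −0.05, and 0.02 over all genes. The groups did not overlap in 14, 14, and 17 of the 41 genes (34.2%, 34.2%, and 41.5%), beside 29.6%, 29.5%, and 25.8% of all genes. The 3 comparisons share libraries, so they are not independent of each other. By their means, 18 of the genes were highest in EDL, 13 in psoas, and 10 in soleus. The 18 include Kcns1, Kcna6, Kcnb2, and Kcnj15, which passed the filter through EDL alone or only through EDL 1, EDL 2, and psoas 1. These counts are thus not independent of the filter. The same counts over all genes were not made, so they are not read as a trait of the channel genes.

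Some properties of the libraries bear on these values. Total counts lay between 12737971 (soleus 3) and 50431713 (psoas 1), and the 3 counts that an observed 0 allows correspond to between 0.0595 and 0.236 CPM, limits that cover counting error only. Reads of EDL 1, EDL 2, psoas 1, and psoas 2 had been quality-trimmed and those of soleus had not, so trimmed libraries can be compared only between EDL and psoas. The libraries followed their labels in fiber markers: the 6 slow fiber genes summed to 15890 to 26520 CPM in soleus against 56.8 to 311 in EDL and 28.2 to 63.4 in psoas, and the 6 fast fiber genes to 7004 to 11230, 57630 to 86950, and 84790 to 88730 CPM. Of other cell types, the 8 fibroblast and tendon genes summed to 1719 to 2169 CPM in EDL, 325 to 551 in psoas, and 511 to 916 in soleus, and the 6 leukocyte genes to 66.2 to 148, 31.0 to 57.0, and 52.2 to 76.7 CPM. The sums overlapped between soleus and both fast muscles for smooth muscle and mural cells (338 to 615 CPM over all libraries), for nerve (13.9 to 66.4 CPM), and for adipocytes (88.3 to 305 CPM). The adipocyte sum consists mostly of Fabp4, and over the 6 adipocyte genes the median log2 fold change of soleus was 2.02 against EDL and 1.74 against psoas, with 5 and 4 of them at an unadjusted p under 0.05, none called by edgeR or limma-voom, and 2 called by DESeq2 in each comparison. The part of adipocytes in the soleus values of the channel genes was not tested. The 6 endothelial genes summed to 126.5 to 219 CPM in EDL, 116 to 126.4 in psoas, and 144 to 168 in soleus. Psoas was thus below soleus, while psoas 1 and EDL 3 were almost equal, so psoas was hardly apart from EDL. Apart from Lep, an adipocyte gene at 0 in psoas 3, each measured marker had reads in every library.

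**Figure D2:**
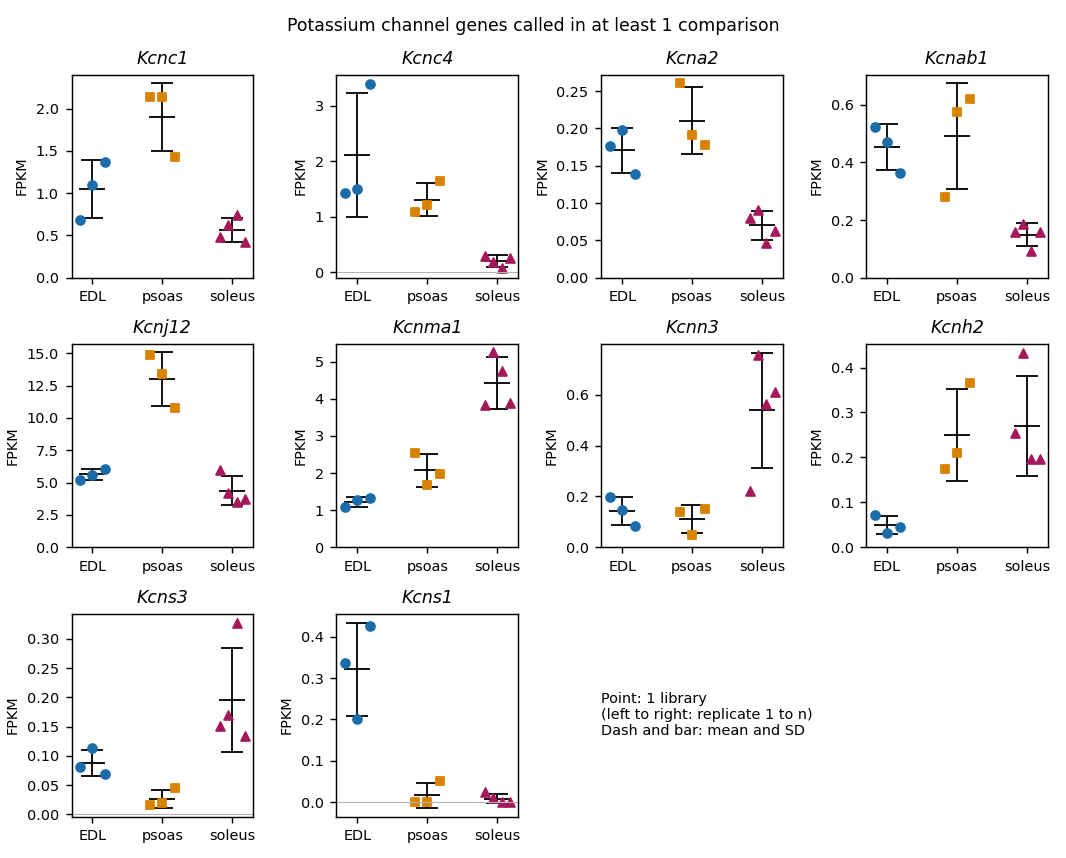
FPKM of each library for 10 potassium channel genes called in at least 1 comparison, with mean and SD of each muscle. Kcnc4 and Kcnab1 are lowest in soleus (means of 0.201 and 0.149 FPKM), Kcnma1 is highest there (4.44 FPKM), Kcnj12 is highest in psoas (13.0 FPKM), and Kcns1 has values above 0.1 FPKM in EDL alone.

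Among the voltage-gated pores, Kcnc4 was lower in soleus than in both fast muscles and Kcnc1 and Kcna2 were lower in soleus than in psoas, whereas Kcnh2 was higher in soleus than in EDL. Of the 14 genes, 2 were called higher and 1 lower in soleus vs EDL (background 5.77%), and 3 were called lower in soleus vs psoas (background 5.69%). In psoas vs EDL, edgeR called none of them (background 2.11%), with 4 at an unadjusted p under 0.05. DESeq2 called 2 (6.80% of all genes), and limma-voom 0 (2.19% of all genes).

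Kcnc4 encodes Kv3.4, a fast-inactivating channel that opens at depolarized potentials and shortens action potentials. The gene lies on chromosome 3 (107438303 to 107459552). It had 1.43, 1.50, and 3.40 FPKM in EDL, 1.08, 1.21, and 1.64 FPKM in psoas, and 0.299, 0.179, 0.0652, and 0.259 FPKM in soleus. Every soleus library was below every library of the fast muscles, and soleus 3 was the lowest, with 3 reads. Kcnc4 was 10.3-fold lower in soleus than in EDL (log2 fold change −3.36, SE 0.43, adjusted p = 0.00056) and 6.40-fold lower than in psoas (−2.68, SE 0.43, adjusted p = 0.0020).

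Kcnc1 encodes Kv3.1, the Shaw-related pore best known from fast-spiking neurons, and lies on chromosome 7 (46396497 to 46438704), where its upstream window shown above holds 1 E-box. It had 0.684, 1.09, and 1.37 FPKM in EDL, 2.14, 2.13, and 1.43 FPKM in psoas, and 0.485, 0.623, 0.742, and 0.419 FPKM in soleus. The psoas libraries were above all others, and soleus overlapped with EDL through EDL 1. The difference was 3.36-fold in soleus vs psoas (−1.75, SE 0.27, adjusted p = 0.0015), while soleus vs EDL (−0.88, adjusted p = 0.041) and psoas vs EDL (0.87, adjusted p = 0.072) were not called.

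Kcna2, a pore of the Kv1 family found in myelinated nerve and in muscle, lies 323 kb from Kcnc4 on chromosome 3 (107101146 to 107115005). Its level was 0.177, 0.198, and 0.138 FPKM in EDL, 0.262, 0.192, and 0.178 FPKM in psoas, and 0.0805, 0.0904, 0.0469, and 0.0621 FPKM in soleus. Soleus was again below both fast muscles without overlap. Kcna2 was 2.97-fold lower in soleus than in psoas (−1.57, SE 0.29, adjusted p = 0.0043), and the value against EDL (−1.27, SE 0.29, adjusted p = 0.012) missed the threshold, though it passed without EDL 3 (0.0087). Between 7 and 36 reads stood behind each soleus value.

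Kcnq5, the gene of a channel that opens near the resting potential, had 3.06 ± 1.26 FPKM in the 3 EDL libraries, 4.38 ± 0.663 in the 3 psoas libraries, and 2.90 ± 0.504 in the 4 soleus libraries (SD), and none of its comparisons was called (adjusted p from 0.16 to 0.86).

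Kcnh2, the gene of the erg channel that repolarizes the heart, lies on chromosome 5 (24319589 to 24351604) and was low in all muscles. It had 0.0723, 0.0311, and 0.0453 FPKM in EDL, 0.174, 0.209, and 0.365 FPKM in psoas, and 0.254, 0.432, 0.198, and 0.196 FPKM in soleus, with 4 to 15 reads behind the EDL values. All EDL libraries were below all others, and psoas and soleus overlapped. Kcnh2 was 5.47-fold higher in soleus than in EDL (2.45, SE 0.48, adjusted p = 0.0058). The value in psoas vs EDL (2.28, SE 0.50, adjusted p = 0.017) missed the threshold, and it passed with DESeq2 (0.00094).

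Of these calls, those of Kcnc4 and Kcnc1 passed whichever library was left out. Kcna2 was lost without psoas 1, psoas 2, or soleus 4 (adjusted p from 0.0141 to 0.0228), and Kcnh2 without EDL 1, 2, or 3 or soleus 1, 2, or 4 (0.0102 to 0.0369).

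Further voltage-gated genes were not called in any comparison. Kcna5 had 1.18 ± 0.372 FPKM in the 3 EDL libraries, 1.77 ± 0.313 in the 3 psoas libraries, and 1.06 ± 0.713 in the 4 soleus libraries (SD), and the soleus libraries spread over 6.77-fold. Kcna1, which lies 105 kb from Kcna5 on chromosome 6 and is best known from nerve, had 0.386 ± 0.148, 0.397 ± 0.211, and 0.212 ± 0.0380 FPKM in the same order. The muscles overlapped in both genes. Kcna6, Kcnb2, Kcnh7, and Kcnq1 were under 0.1 FPKM in every muscle.

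Among the subunits that modify voltage-gated pores, Kcns1 had at most 2 reads in any library outside EDL and Kcns3 was lowest in psoas. Both encode silent subunits that assemble with other pores, and both rest on few reads.

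Kcns1 (chromosome 2, 164163619 to 164171113) had 39, 29, and 21 reads in EDL, 0, 0, and 2 in psoas, and 1, 1, 0, and 0 in soleus, or 0.336, 0.202, and 0.425 FPKM in EDL, at most 0.0522 in psoas, and at most 0.0252 in soleus. No other library reached the lowest EDL value. All soleus and psoas libraries were at or under 3 reads. With each set to 3 reads, and this floor taken as the mean over the libraries of the group, its level was 5.03-fold lower in soleus and 5.42-fold lower in psoas than in EDL. As some of these libraries had reads, the values are not strict limits. Soleus vs EDL was called (adjusted p = 0.0046) and psoas vs EDL was not (adjusted p = 0.016). As Kcns1 entered the counts through EDL alone, a difference from the other muscles was a condition for its being there.

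Kcns3 (chromosome 12, 11090202 to 11151056) had 11, 19, and 4 reads in EDL, 2, 1, and 2 in psoas, and 7, 18, 13, and 8 in soleus. These are 0.0812, 0.113, and 0.0694 FPKM in EDL, 0.0167, 0.0200, and 0.0448 FPKM in psoas, and 0.151, 0.170, 0.328, and 0.134 FPKM in soleus. The 3 muscles did not overlap, with soleus on top. With each psoas library set to 3 reads, soleus was 3.86-fold above psoas, which is not a strict limit, as the psoas libraries had reads. Soleus vs psoas was called (adjusted p = 0.0092), and soleus vs EDL was not (1.07, SE 0.48, adjusted p = 0.14). Kcns3 passed the filter through EDL and soleus libraries alone, so its difference from psoas is not independent of the filter.

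Kcng4, described above by its levels, was lower in soleus than in psoas by its mean, but the value (−2.48, SE 0.70, adjusted p = 0.036) was not called and the groups overlapped. It passed without soleus 1 (−3.59, adjusted p = 0.0022). Psoas 1 and 2, which were high, had trimmed reads, and among the untrimmed libraries Kcng4 was 1.44-fold lower in soleus than in psoas (4 libraries against 1). Kcnf1 was between 0.0857 and 0.579 FPKM and was not called. The call of Kcns1 was lost without EDL 1, EDL 2, or soleus 2, 3, or 4 (adjusted p from 0.0119 to 0.0198), and that of Kcns3 without any of 9 libraries, EDL 3 being the exception (0.0129 to 0.0580). With limma-voom, the call of Kcns3 was lost as well (adjusted p = 0.0170, and 0.0119 with the animal as a random effect).

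Of the 5 accessory subunits, Kcnab1 was lower in soleus than in both fast muscles. It encodes a beta subunit that binds Kv1 pores inside the cell and can make them inactivate, and lies on chromosome 3 (65109384 to 65378223). Its values were 0.522, 0.472, and 0.364 FPKM in EDL, 0.279, 0.576, and 0.618 FPKM in psoas, and 0.159, 0.185, 0.0928, and 0.160 FPKM in soleus. Every soleus library was below every fast library, and EDL and psoas overlapped. The differences were 2.99-fold against EDL (−1.58, SE 0.32, adjusted p = 0.0067) and 3.19-fold against psoas (−1.67, SE 0.32, adjusted p = 0.0053). Both calls were close to the threshold: the first was lost without EDL 1, EDL 2, psoas 2, or any soleus library (adjusted p from 0.0101 to 0.0298), and the second without psoas 2, psoas 3, or any soleus library (0.0113 to 0.0282). Both were also lost with limma-voom (adjusted p = 0.0115 and 0.0260) and with the animal as a random effect in it (0.0113 and 0.0197).

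Kcne4, a single-span subunit that inhibits several voltage-gated pores, had 0.793 ± 0.275 FPKM in the 3 EDL libraries, 0.393 ± 0.162 in the 3 psoas libraries, and 1.01 ± 0.295 in the 4 soleus libraries (SD). Soleus lay above psoas without overlap (1.39, SE 0.39, adjusted p = 0.033), which was not called. Kcnab2, Kcne1l, and Kcnmb4, the last a beta subunit of the large-conductance channel, had muscle means between 0.0725 and 0.475 FPKM and were not called.

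The inward rectifiers included the only gene called between the fast muscles. Kcnj12 encodes Kir2.2, a partner of Kir2.1 in the resting conductance, and lies on chromosome 11 (61022564 to 61071131). It had 5.21, 5.59, and 6.07 FPKM in EDL, 14.9, 13.4, and 10.7 FPKM in psoas, and 6.00, 4.17, 3.51, and 3.76 FPKM in soleus. The psoas libraries were above all others, and EDL and soleus overlapped through soleus 1. Kcnj12 was 2.32-fold higher in psoas than in EDL (1.21, SE 0.21, adjusted p = 0.0071) and 2.99-fold lower in soleus than in psoas (−1.58, SE 0.20, adjusted p = 0.00046), and soleus vs EDL was not called (−0.37, SE 0.20, adjusted p = 0.21).

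The psoas vs EDL call of Kcnj12 was lost without EDL 1 or 2, psoas 1, 2, or 3, or soleus 2 or 4 (adjusted p from 0.0115 to 0.0457). Psoas was 2.62-fold above EDL in the trimmed libraries (2 against 2) and 1.77-fold in the untrimmed ones (1 against 1). The soleus vs psoas call passed whichever library was left out.

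No subunit of the ATP-gated channels was called in any comparison. Kcnj11 encodes Kir6.2, the pore of such channels in muscle fibers, and had 4.65 ± 1.70 FPKM in the 3 EDL libraries, 4.45 ± 0.652 in the 3 psoas libraries, and 5.04 ± 2.05 in the 4 soleus libraries (SD), with adjusted p from 0.77 to 0.93. Abcc9, the gene of its regulatory subunit SUR2, had 21.7 to 35.1 FPKM and was not called, and Abcc8, the gene of SUR1, had 0.0169 to 0.147 FPKM. Kcnj8 encodes Kir6.1, the pore of ATP-gated channels in vessels. Its level was 4.73, 4.17, and 5.02 FPKM in EDL, 2.61, 2.34, and 3.06 FPKM in psoas, and 4.24, 6.07, 3.16, and 5.08 FPKM in soleus. All psoas libraries were below all others, but the differences were under 2-fold and were not called (−0.80, adjusted p = 0.046 in psoas vs EDL, and 0.81, adjusted p = 0.030 in soleus vs psoas). The smooth muscle and mural cell markers summed to 438 to 615 CPM in EDL, 338 to 414 in psoas, and 379 to 589 in soleus, and the endothelial sum was also lowest in psoas, with lower estimates in psoas vs EDL for the genes of the list other than Cdh5 (median log2 fold change −0.67), all 6 at an unadjusted p under 0.05 and none called by edgeR, DESeq2, or limma-voom. The part of vessel cells in the Kcnj8 values was not tested. Kcnj3 and Kcnj15, the remaining inward rectifiers, had muscle means of at most 0.230 FPKM and were not called.

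All 5 tandem-pore genes had a lower estimate in psoas than in EDL, with log2 fold changes from −2.20 to −0.70. The median was −1.38, which is the value of Kcnk13, beside 0.01 over all genes. Kcnk13 reached 10 reads in EDL and soleus libraries alone, so its low value in psoas is not independent of the filter. Kcnk1 had 0 reads in psoas 2 and psoas 3. Of the 5 tandem-pore genes, edgeR called none in any comparison. In psoas vs EDL, soleus vs EDL, and soleus vs psoas, 2, 1, and 1 of them had an unadjusted p under 0.05. DESeq2 called 2, 0, and 1 of them (6.80%, 9.43%, and 8.58% of all genes), and limma-voom called 0 throughout. These channels carry the background conductance that many cells have at rest. Kcnk2, the gene of the mechanosensitive channel TREK-1, had 0.487 ± 0.0323 FPKM in the 3 EDL libraries, 0.102 ± 0.0256 in the 3 psoas libraries, and 0.342 ± 0.172 in the 4 soleus libraries (SD). EDL and soleus overlapped, and all psoas libraries were below both (psoas vs EDL −2.20, SE 0.44, adjusted p = 0.012, and soleus vs psoas 1.74, SE 0.42, adjusted p = 0.018). Without soleus 3, both passed (0.0038 and 0.0048). Kcnk6, the gene of TWIK-2, had 0.864 ± 0.256, 0.291 ± 0.133, and 0.447 ± 0.144 FPKM in the same order (psoas vs EDL −1.53, SE 0.39, adjusted p = 0.030). Kcnk1, Kcnk5, and Kcnk13 had muscle means between 0.0409 and 0.276 FPKM. Fibroblast and tendon markers were also lower in psoas than in EDL, with 5 of 8 called lower and a sum of 325 to 551 CPM against 1719 to 2169. Of the 6 leukocyte markers, 1 was called lower, with a sum of 31.0 to 57.0 CPM against 66.2 to 148. The part of these cells in the tandem-pore values was not tested.

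Among the calcium-activated channels, Kcnma1 encodes the pore of the large-conductance BK channel, which opens on depolarization and on a rise of calcium. The gene lies on chromosome 14 (23289431 to 24014491). It had 1.08, 1.26, and 1.32 FPKM in EDL, 2.55, 1.69, and 1.99 FPKM in psoas, and 3.84, 5.27, 4.76, and 3.88 FPKM in soleus. The 3 muscles did not overlap, with EDL lowest and soleus highest. Soleus was 3.64-fold above EDL (1.86, SE 0.19, adjusted p = 0.00015) and 2.14-fold above psoas (1.10, SE 0.19, adjusted p = 0.0027), whereas psoas vs EDL was under 2-fold (0.77, SE 0.20, adjusted p = 0.030). With 407 to 2990 reads, this was the most deeply covered of the potassium channel genes called higher in soleus. The call against psoas was lost without psoas 2 (0.97, adjusted p = 0.0167) or psoas 3 (adjusted p = 0.0118), and that against EDL passed whichever library was left out.

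Kcnn3, the gene of the small-conductance channel SK3 that underlies the afterhyperpolarization of immature and denervated muscle, lies on chromosome 3 (89520164 to 89675132). It had 0.197, 0.148, and 0.0841 FPKM in EDL, 0.139, 0.0485, and 0.149 FPKM in psoas, and 0.223, 0.756, 0.565, and 0.611 FPKM in soleus. Every soleus library was above every other, but soleus 1 only narrowly. The difference was 4.75-fold in soleus vs psoas (2.25, SE 0.48, adjusted p = 0.0095), and that in soleus vs EDL (1.89, SE 0.46, adjusted p = 0.016) passed only without soleus 1 (0.0070) or with DESeq2 (0.00052). The soleus vs psoas call was lost without EDL 1, EDL 2, any psoas library, or soleus 2, 3, or 4 (adjusted p from 0.0128 to 0.0400). It was also lost with limma-voom (adjusted p = 0.0193) and with the animal as a random effect in it (0.0190). Soleus 2, the highest library in Kcnma1, Kcnh2, and Kcnn3, also had the lowest sum of fast fiber genes (7004 CPM against 10110 to 11230 in the other soleus libraries), and the part of this in their values was not tested.

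Kcnn1, the gene of SK1 and the most abundant of its family, had 2.16 ± 0.613 FPKM in the 3 EDL libraries, 2.83 ± 0.635 in the 3 psoas libraries, and 2.82 ± 0.308 in the 4 soleus libraries (SD), and was not called (adjusted p from 0.23 to 0.996). Kcnn2, the gene of SK2, was lower in soleus (0.0811 ± 0.0196 FPKM) than in EDL (0.156 ± 0.0397) and psoas (0.195 ± 0.0583) by its means, without overlap and without a call (soleus vs psoas −1.28, SE 0.34, adjusted p = 0.029). Kcnu1, the gene of a channel known from sperm, had 0.187 ± 0.0745, 0.0998 ± 0.0324, and 0.0376 ± 0.0187 FPKM in EDL, psoas, and soleus, and the value in soleus vs EDL (−2.12, SE 0.51, adjusted p = 0.016) was not called. Kcnt2 was at most 0.325 FPKM and was not called.

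**Figure D3:**
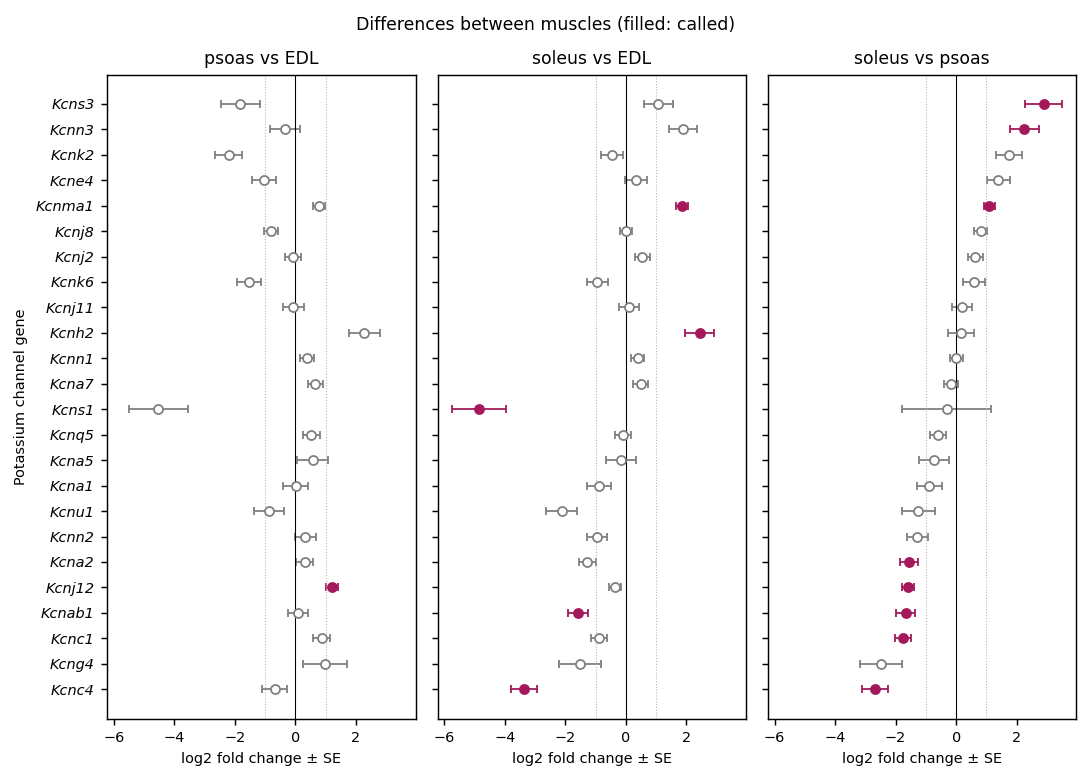
Log2 fold changes with SE from edgeR's quasi-likelihood fit for 24 potassium channel genes in the 3 comparisons, ordered by soleus vs psoas, with called values filled and dotted lines at a fold change of 2. Filled values number 1, 5, and 8, and the fitted value of Kcns1 (−4.85 in soleus vs EDL) rests on 2 reads in all soleus libraries.

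Trimming was taken into account by comparing libraries of like status. With the untrimmed libraries alone (EDL 3, psoas 3, and all soleus libraries), all 6 genes called in soleus vs EDL and all 8 called in soleus vs psoas kept their direction with more than a 2-fold difference. These are values of 1 EDL or psoas library against 4 soleus libraries. The groups of these genes did not overlap over all libraries, so their direction was fixed in advance. The genes were also picked for a difference of more than 2-fold that included these libraries. A fit of the untrimmed libraries, in which the spread came from soleus alone, called none of them, with 12 and 11 of the 41 genes at an unadjusted p under 0.05. With trimming as a covariate over all libraries, Kcnc4, Kcnma1, and Kcns1 passed in soleus vs EDL, and Kcnc1, Kcnc4, and Kcnj12 in soleus vs psoas. The other calls of these comparisons were then lost, while all kept their direction and more than a 2-fold difference. Beside Kcnh2 (2.03, adjusted p = 0.0740), log2 fold changes were −1.63 for Kcnab1 in soleus vs EDL, and −1.71 for Kcnab1, −1.28 for Kcna2, 1.07 for Kcnma1, 2.38 for Kcnn3, and 2.86 for Kcns3 in soleus vs psoas.

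Proteins that partner with potassium channels were examined by a list of 9 genes, 8 of which were measured. In soleus vs EDL, 1 was called higher (background 5.77% of all genes), and in soleus vs psoas 1 was higher and 1 lower (background 5.69%). In psoas vs EDL, edgeR, DESeq2, and limma-voom called 0 of them, with 2 at an unadjusted p under 0.05 in edgeR. Lrrc52, a gamma subunit that shifts the activation of large-conductance channels, had 0.0204, 0.396, and 0.240 FPKM in EDL, 0.323, 0.555, and 0.434 FPKM in psoas, and 8.68, 4.03, 13.3, and 4.30 FPKM in soleus. All soleus libraries were above all others. The log2 fold change was 5.05 against EDL (SE 0.70, adjusted p = 0.00088) and 4.14 against psoas (SE 0.68, adjusted p = 0.0022), and the call against psoas was lost without psoas 1 or psoas 2 (0.0164 and 0.0126). With trimming as a covariate, both calls of Lrrc52 were lost at folds of like size (4.97, adjusted p = 0.0128, and 4.08, adjusted p = 0.0220).

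Lrrc38, another gamma subunit, went the other way, with 2.71, 2.62, and 4.73 FPKM in EDL, 4.22, 5.70, and 5.39 FPKM in psoas, and 0.824, 2.28, 1.51, and 1.48 FPKM in soleus. Soleus was below both muscles without overlap, called against psoas (−1.72, SE 0.32, adjusted p = 0.0041) and not against EDL (−1.11, adjusted p = 0.032). The call was lost without psoas 2 or 3 or soleus 3 or 4 (0.0104 to 0.0183). Amigo1, a partner of voltage-gated pores, and the Dpp genes, partners of Kv4 channels, were not called.

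Other genes of potassium transport were examined by a list of 16, 13 of which were measured. In soleus vs EDL, 5 were called higher and 1 lower (background 5.77% of all genes). In soleus vs psoas, 2 were higher and 1 lower (background 5.69%). In psoas vs EDL, edgeR called 0 (background 2.11%), with 7 at an unadjusted p under 0.05. DESeq2 called 3 (6.80% of all genes), and limma-voom called 2 (2.19% of all genes).

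Atp1b2, a beta subunit of the sodium pump, which returns potassium to the fiber after activity, fell in soleus, from 1.03 to 2.12 FPKM in EDL and 2.93 to 4.12 FPKM in psoas to values of 0.352, 0.344, 0.273, and 0.401 FPKM. All soleus libraries were below all others (−2.12 against EDL, adjusted p = 0.00053, and −3.28 against psoas, adjusted p = 6.5e-05). In soleus vs EDL, Atp1b1 (another beta subunit, 1.51, adjusted p = 0.00032), the potassium-chloride cotransporter Slc12a4 (1.56, adjusted p = 0.00089), and the cation channel of the sarcoplasmic reticulum Tmem38b (1.62, adjusted p = 0.00015) were higher. Slc12a4 was also higher than in psoas (2.20, adjusted p = 0.00016), and with trimming as a covariate its value against EDL missed the threshold (1.35, adjusted p = 0.01095).

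**Figure D4:**
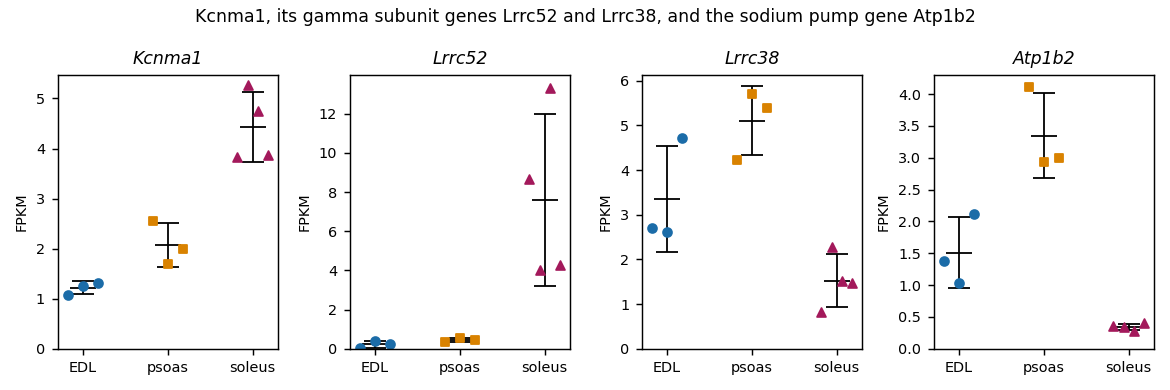
FPKM of each library, with mean and SD of each muscle, for Kcnma1, the gamma subunit genes Lrrc52 and Lrrc38, and the sodium pump gene Atp1b2. Lrrc52 lies between 4.03 and 13.3 FPKM in soleus and at most at 0.555 FPKM elsewhere, and Lrrc38 is at most at 2.28 FPKM in soleus and at least at 2.62 FPKM elsewhere. Atp1b2 is at most at 0.401 FPKM in soleus and at least at 1.03 FPKM elsewhere.

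Some of the channel genes are neighbors in the genome. On chromosome 6, Kcna5, Kcna1, and Kcna6 follow each other with gaps of 105 and 61.9 kb, and none of them was called. Kcna2 and Kcnc4 on chromosome 3 were both lower in soleus than in psoas. Of Kcna7, Kcnj11, and Kcnc1, which share a stretch of chromosome 7 with gaps of 684 and 296 kb, Kcnc1 was called in soleus vs psoas and the other two were not, and the differences between the neighbors were not tested. Exons of Kcnh7 and Kcnq1 overlap with a counted gene on the other strand over 696 and 121 bases, and as the strand setting of the counting is not given, reads of such overlaps cannot be assigned with certainty. The genes of 1 family are paralogs, and the sources do not say how a read that fits more than 1 of them was assigned.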

How the data were processed

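The deposited values were counts per gene, 1 table per library. The authors trimmed libraries of low quality with Trimmomatic 0.32, aligned read pairs of stranded total RNA libraries with Tophat 2.1.1 to GRCm38, counted reads per gene in R, and kept genes reaching 10 reads in 3 or more libraries. All 16112 genes met this filter. The strand setting of the counting and its handling of multi-mapping reads are not given in the sources used here. Muscles were taken from the labels, and no sample was left out.

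Symbols, biotypes, and exon lengths came from GENCODE M21. FPKM was computed from counts, TMM library sizes, and summed exon lengths. Muscles were compared with edgeR 4.0.16 (R 4.3.3; quasi-likelihood test, no covariate). On simulated counts with known fold changes, the fit was checked before use. Alternatives used DESeq2 1.42.0, limma 3.58.1, other normalizations, filters and covariates, thinned counts, and fits without each library. Fits of trimmed or untrimmed libraries alone were added after seeing the data. Tables and Dixon's ratio were made with Python 3.11.15. Total counts of 12737971 to 50431713 limit what low genes can show.

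The members, gene lists, and rule for naming genes were chosen with earlier results of these data known. The rule took genes called in any comparison, the 10 most abundant, genes that differed more than 2-fold at an adjusted p below 0.05, and a fixed list of genes known from muscle, vessels, nerve, or leukocytes. Genes under 0.1 FPKM in every muscle were given in counts. Some genes that enter the counts are not reported here by name, and protein sequences were not analysed here.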

Additional observations from a re-analysis of the deposited data

Results flagged for a closer look

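Kcng4 in soleus 1, at 9.74 FPKM, stood apart from the other soleus libraries, which had between 1.47 and 2.02 FPKM. The gap to the nearest library was 0.934 of the range, above Dixon's critical value for 4 libraries. Soleus was tested in this way for 26 genes, and chance flags about 1 in 20 groups. The libraries of psoas were also spread in Kcng4, with 35.3 FPKM in psoas 1 against 20.9 and 5.36 in the other two. Psoas 1 and soleus 1, the highest library of each muscle, carry the same animal code in the labels, and no EDL library carries that code. Soleus 1 had the lowest sum of slow fiber genes of the soleus libraries (15890 CPM against 22480 to 26520) and the highest sum of fast fiber genes (11230 CPM against 7004 to 10520). The part of these differences in the Kcng4 value was not tested. Without soleus 1, Kcng4 was called lower in soleus than in psoas (log2 fold change −3.59, adjusted p = 0.0022 in edgeR's quasi-likelihood test, beside −2.48 and 0.036 with all libraries, and 0.0022 to 0.83 over 21 alternatives). All soleus libraries were untrimmed and psoas 1 and 2 were trimmed, and among the untrimmed libraries Kcng4 was 1.44-fold lower in soleus than in psoas 3.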

How the results depend on the processing

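No named gene that was called reversed its direction under an alternative. As the groups of the called potassium channel genes did not overlap, leaving out libraries could hardly have reversed them. The numbers of potassium channel genes called (psoas vs EDL 1, soleus vs EDL 6, soleus vs psoas 8, of 41) depended on the setting. In that order, DESeq2 called 5, 8, and 9, leaving 7, 0, and 3 genes without an adjusted p, and limma-voom 1, 5, and 5 (2.19%, 6.06%, and 5.08% of all genes). An adjusted p under 0.05 gave 6, 10, and 12. Covariates for trimming gave 2, 3, and 3 and for sex, without soleus 3, 3, 4, and 4. Thinned counts gave 0 (11 genes at an unadjusted p under 0.05), 4, and 4. The animal as a random effect in limma-voom gave 1, 5, and 5 (2.48%, 6.54%, and 6.24% of all genes). The untrimmed libraries alone gave 0, 0, and 0 (3, 12, and 11 genes at an unadjusted p under 0.05), and the trimmed ones 0 in psoas vs EDL (15 genes). These fits hold fewer libraries. The counts with RLE size factors (1, 6, 7), upper-quartile normalization (1, 7, 7, with a soleus vs EDL median of −0.14 over all genes on the log2 scale), and a minimum count of 30 (1, 4, 6 of 22 genes tested) stayed within 1.5 times. The minimum count left fewer genes to test, so its shares were higher: 4.545%, 18.2%, and 27.3% of the 22, against 2.44%, 14.6%, and 19.5% of the 41. Of all genes tested, it called 2.69%, 7.18%, and 7.16%. In the other cases the cause was not tested. The share of all genes called also moved, from 2.11%, 5.77%, and 5.69% to 6.80%, 9.43%, and 8.58% with DESeq2, 7.65%, 11.5%, and 9.70% at an adjusted p under 0.05, 3.755%, 2.30%, and 3.51% with trimming, 5.37%, 4.88%, and 5.95% with sex, 1.105%, 4.64%, and 4.36% with thinned counts, and 0%, 0.298%, and 0.205% in the untrimmed libraries.

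Leaving out 1 library gave 0 to 2, 2 to 6, and 3 to 8 calls, beside 0.379% to 5.98%, 2.39% to 9.38%, and 3.06% to 5.98% of all genes. Psoas vs EDL had 0 calls without EDL 1, EDL 2, any psoas library, soleus 2, or soleus 4, with 10 to 13 genes at an unadjusted p under 0.05, and 2 without EDL 3 or soleus 3. Soleus vs EDL had 2 without EDL 1 or EDL 2 and 3 without soleus 2 or soleus 4. Soleus vs psoas had 3 without psoas 2, 4 without psoas 3 or soleus 4, and 5 without psoas 1 or soleus 2.

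The replicate block gave 0 (12 genes at an unadjusted p under 0.05), 3, and 2 calls (0.906%, 3.64%, and 3.345% of all genes). Libraries with the same number correlated between −0.23 and 0.50 in their deviations from the muscle means, and not every pair was above 0.1, so the numbers were not taken as pairing. Over all named genes, 144 of 592 values of called genes were not called under an alternative and 44 of 2250 values of genes not called were. With thinned counts, the calls of Kcnab1, Kcna2, Kcnh2, Kcnn3, and Kcns3 and that of Kcnj12 in psoas vs EDL were lost, and that of Kcns1 was not.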
